A study of Bos taurus with 31 samples.

Results

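Solute carriers are membrane proteins that move ions, nutrients and vitamins across a membrane, often several solutes together. Many are driven by the sodium gradient kept up by the sodium pump, others by a proton gradient or by the gradient of the solute itself. In the mammary gland, carriers at the blood side of the epithelial cell take up what milk synthesis uses, while carriers at the milk side and inside the cell set the ion, metal and vitamin content of milk and the acidity of cell compartments. The genes described here are the members of 24 carrier families for ions and small nutrients (SLC4A, 5A, 6A, 8A, 9A, 11A, 12A, 13A, 15A, 16A, 17A, 19A, 22A, 23A, 24A, 26A, 28A, 29A, 40A, 41A, 43A, 44A, 46A and 52A), chosen by the start of the gene symbol. Each of the 24 families had a gene in the count table, and together they gave 109 of its 13407 distinct loci. Most of these carriers are known from the plasma membrane, but some, such as SLC9A9, SLC15A3, SLC17A5 and SLC46A3, are known from endosomes or lysosomes, and RNA levels do not show where a protein lies. SLC9A3R1 and SLC9A3R2 share the prefix but encode scaffold proteins that bind carriers.

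Expression was measured by poly-A RNA sequencing of epithelial organoids, the clusters of cells left after enzymatic digestion of mammary biopsies from 16 dairy cows. There were 16 libraries from lactating cows at 40 to 60 days of lactation and 15 from virgin animals aged 14 months, and 15 animals gave both. No breed is given in the labels. Libraries are named by stage and animal, so that L478 and V478 are the lactating and virgin libraries of 1 cow. Every lactating sample was taken later in life and after calving, so stage cannot be told apart from age, parity and sampling time.

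Total counts over distinct loci ranged from 17637505 to 45478555 in lactating and from 12477568 to 38794104 in virgin libraries. Luminal epithelial markers summed to 2285 to 6597 CPM in lactating and 3065 to 15370 CPM in virgin libraries (CPM, counts scaled to the library's total, lowest to highest library), and 0 of the 8 were higher and 4 lower in lactation. Other cell types were also present. All 7 tested endothelial markers were higher in lactation, with sums of 281 to 1966 CPM in lactating and 32.5 to 748 CPM in virgin libraries, as were 6 of 7 macrophage markers (160.4 to 813 CPM and 20.4 to 97.5 CPM) and 5 of 5 lymphocyte markers (22.9 to 64.1 CPM and 3.21 to 42.3 CPM). Of 5 myoepithelial markers 2 were higher (394 to 1270 CPM and 219 to 1209 CPM), of 4 adipocyte markers 2 were higher and 1 lower (40.7 to 1803 CPM and 3.57 to 249 CPM), of 3 neutrophil markers 1 was higher and 1 lower (6.43 to 25.6 CPM and 1.75 to 14.9 CPM), and of 6 fibroblast markers 4 were lower (746 to 2341 CPM and 455 to 30880 CPM). KRT5 and KRT14, on the myoepithelial list, are not among the 5, as their counts equalled those of rows kept under other names. A single gene made up most of the adipocyte and of the macrophage sum in L507, the highest library of both. FABP4 held 1793 of the 1803 CPM and CD14 held 752 of the 813 CPM. Of the other adipocyte markers LIPE was higher, PLIN1 lower and ADIPOQ not called. V479 held the highest luminal sum and V502 the highest fibroblast sum, and V479 was the highest virgin library in 31 of the 94 tested carriers and the lowest in 17. COL1A1 stood at 9022 CPM in V502, against 751 CPM in the next virgin library. Its medians were 233 CPM in lactating and 200.5 CPM in virgin libraries. With the animal as a block, 1 of the 6 fibroblast markers was higher and 1 lower. In that fit COL1A1, COL1A2 and COL3A1 were not called (log2 fold changes 0.008, 0.12 and 0.06). Fewer cells of a type and less RNA per cell cannot be told apart in these libraries. The part of these cell types in the changes below was not tested.

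As a group the carriers moved in both directions between the stages. Of the 109, 94 had enough counts to be tested and 15 did not (highest stage mean 1.47 CPM). With edgeR's quasi-likelihood test and a Benjamini-Hochberg adjusted p under 0.05 over all 12472 tested loci, 31 carriers (33.0%) were higher in lactation, against 23.8% of all loci, and 26 (27.7%) were lower, against 31.3% of all loci. The change was over 2-fold (glmTreat) for 11 carriers that were higher, against 5.28% of all loci, and for 4 that were lower, against 2.82%. Among the called carriers, 9 were higher in 15 of 15 animals (background 7.29%) and 6 lower in 15 of 15 (background 5.51%). In 2 carriers, SLC40A1 and SLC46A3, every lactating library lay above every virgin library (background 1.22%), and in 0 carriers did every lactating library lie below every virgin one (background 0.762%). Without V479 and V502 the counts were 37 higher and 27 lower, with 15 higher and 4 lower over 2-fold, and those of all loci also grew, to 3580 higher, against 2970 with every library, and 4123 lower, against 3900. The median log2 fold change, lactating over virgin, was 0.18 over the carriers and -0.09 over all loci.

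**Figure D1:**
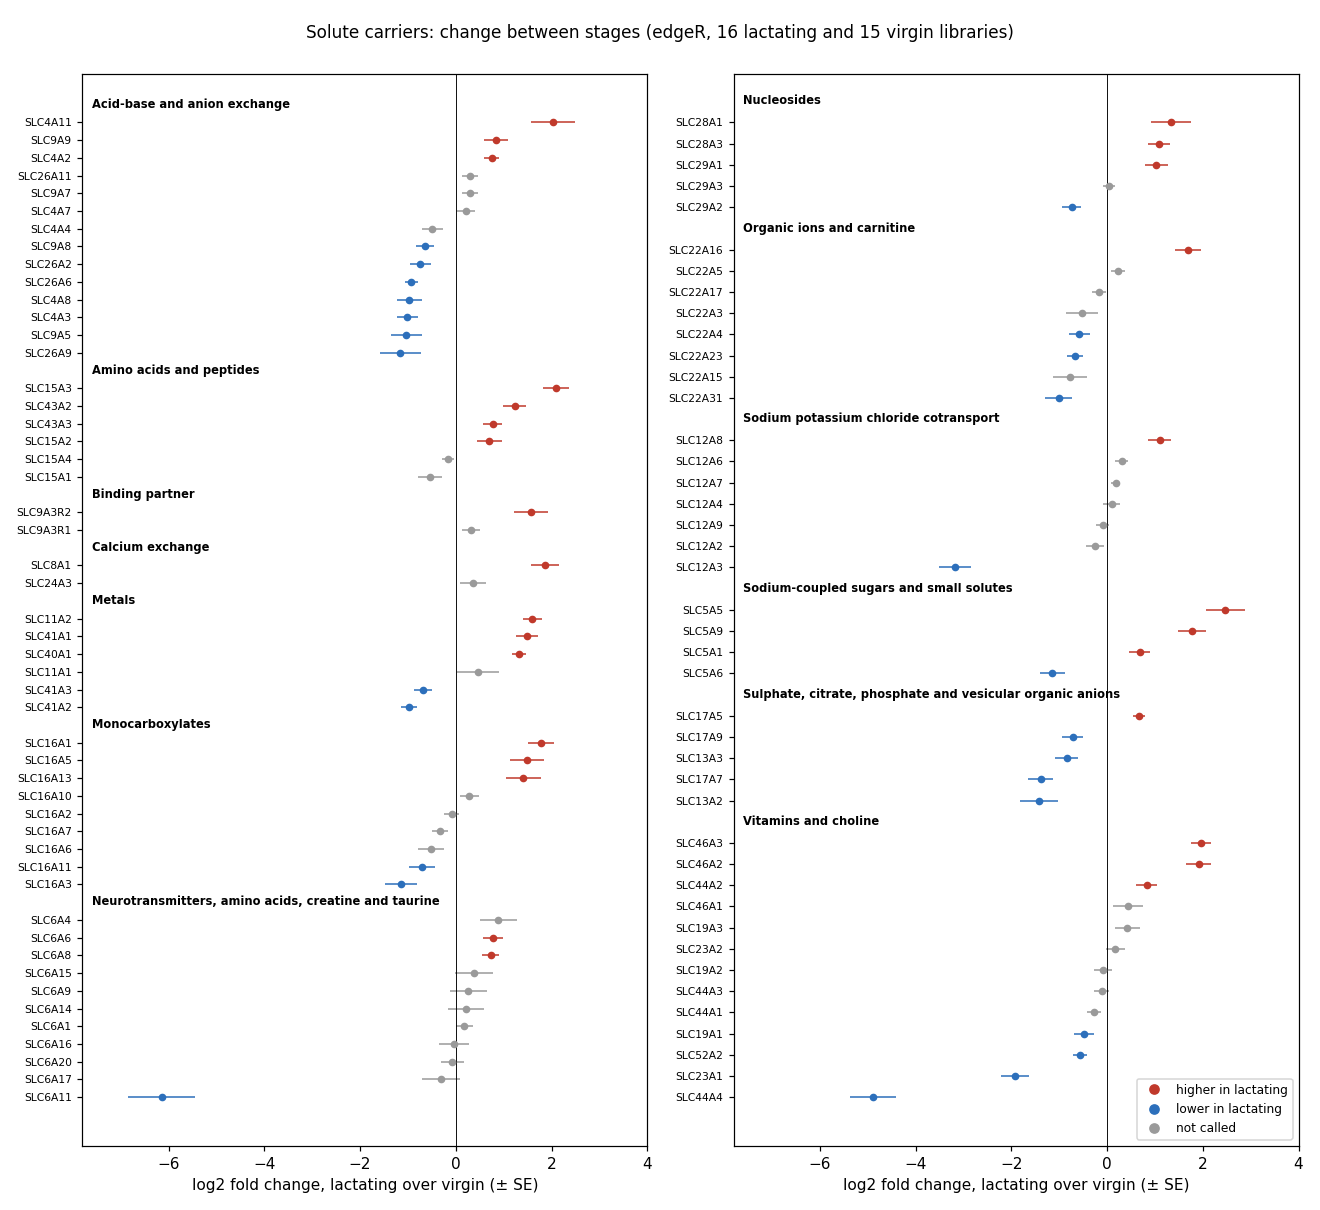
Log2 fold change (lactating over virgin, horizontal axis, with SE) of 92 of the 94 tested carriers, grouped by solute and ordered within a group, from edgeR on 16 lactating and 15 virgin libraries. Red points mark 29 carriers higher in lactation, blue points 26 lower and grey points 37 not called. Of the 94 tested values 16 lie above 0 with TMM factors and turn negative without them.

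The balance of the calls rests on the scaling between libraries. All values here use TMM factors. Without them the median log2 fold change of all loci moved by -0.46, and the carriers' calls became 18 higher and 42 lower, holding 18 of the 31 and all 26 of the calls made with TMM. Over 2-fold, 2 were then higher and 6 lower. In all, 16 carriers with a value above 0 turned negative without TMM. SLC40A1 and SLC46A3, the 2 carriers without overlap between the stages, overlapped without TMM factors.

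**Figure D2:**
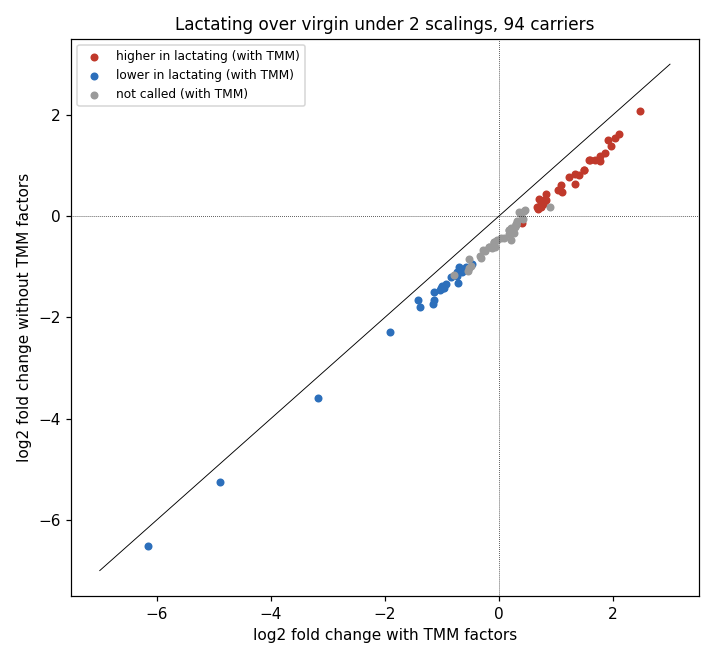
Log2 fold change (lactating over virgin) of the 94 tested carriers with TMM factors (horizontal axis) and without (vertical axis). The solid line marks equal values. All points lie below it, and points to the right of 0 and below 0 changed sign, 16 in all.

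Levels can be compared between carriers only per length, and the lengths recovered from the deposited values are those of the whole counted locus, introns included, so a long gene reads low. On that scale, CPM per kilobase of counted locus averaged over all 31 libraries, the highest carriers were SLC29A1 (25.4), SLC6A8 (9.91), SLC41A1 (6.24), SLC16A1 (5.65), SLC16A11 (5.45), SLC26A2 (4.04), SLC12A2 (3.83) and SLC52A2 (3.36). They carry nucleosides, creatine, magnesium, monocarboxylates, sulphate, ions with chloride and riboflavin. The order differed by stage. In lactating libraries the 8 highest were SLC29A1 (33.7), SLC6A8 (12.3), SLC41A1 (9.06), SLC16A1 (8.60), SLC16A11 (4.18), SLC12A2 (3.50), SLC28A3 (3.23) and SLC26A2 (3.06). In virgin libraries they were SLC29A1 (16.5), SLC6A8 (7.40), SLC16A11 (6.80), SLC44A4 (5.58, against 0.185 in lactating libraries), SLC26A2 (5.09), SLC12A2 (4.17), SLC52A2 (4.04) and SLC5A6 (3.27).

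Levels below are given as the lowest, the median and the highest library of a stage in CPM over the TMM-scaled library, and log2 fold changes with their SE over the 16 lactating and 15 virgin libraries. Counts of calls in the groups and lists below stand against 23.8% higher and 31.3% lower over all tested loci. Without TMM factors 1283 of all loci were higher and 7217 lower.

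Monocarboxylate carriers of the SLC16 family move lactate, pyruvate and ketone bodies together with a proton. Of 11 members 9 were tested, and 3 rose and 2 fell, or 3 and 5 without TMM factors and 3 and 1 when blocked by animal. SLC16A1 (MCT1), the broadly expressed lactate and pyruvate carrier, was at 80.1, 322 and 639 CPM in lactating and 31.0, 74.4 and 156 CPM in virgin libraries. All 16 lactating libraries lay above the virgin median and 11 lay above the highest virgin library, while L478, L538, L490, L581 and L504 overlapped the virgin range. Those 5 were among the 7 lactating libraries lowest in the summed share of milk protein genes, at 0.577, 0.243, 11.4, 5.29 and 7.32% of counts in that order, against up to 51.5% in L479; the part of this in their SLC16A1 level was not tested. It rose by 1.77 ± 0.27 on the log2 scale (adjusted p = 2.33e-06, edgeR) and was higher in 14 of 15 animals. SLC16A3 (MCT4), known for lactate export from glycolytic cells, went the other way, at 1.3, 2.87 and 7.59 CPM in lactating and 1.26, 6.33 and 31.1 CPM in virgin libraries. Its ranges overlapped widely, V478 was the lowest of all libraries, and it was lower in 9 of 15 animals. The fall was 1.14 ± 0.34 on the log2 scale (adjusted p = 0.00479, edgeR). SLC16A11, a family member linked in humans to diabetes risk, stood at 6.89, 10.1 and 15.5 CPM in lactating and 4.80, 12.3 and 74.2 CPM in virgin libraries, and its log2 fold change was -0.70 ± 0.27 (adjusted p = 0.0297, edgeR). V479 held the top virgin value, and without V479 the log2 fold change was -0.31 and the call was lost, as it was without V581, with the animal as a block, without the 5 animals whose virgin library title carries an added letter and with limma-voom. SLC16A5 (log2 fold change 1.48 ± 0.36) and SLC16A13 (1.41 ± 0.37) were the other members higher in lactation. The counts of SLC16A13 were identical to those of its neighbour BCL6B, and its counted locus was 3.49 times its RefSeq span, so the reads of the 2 genes cannot be told apart. L595 and V502, the highest library of each stage for this row, also held the highest endothelial sums. The part of endothelial cells in this rise was not tested.

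**Figure D3:**
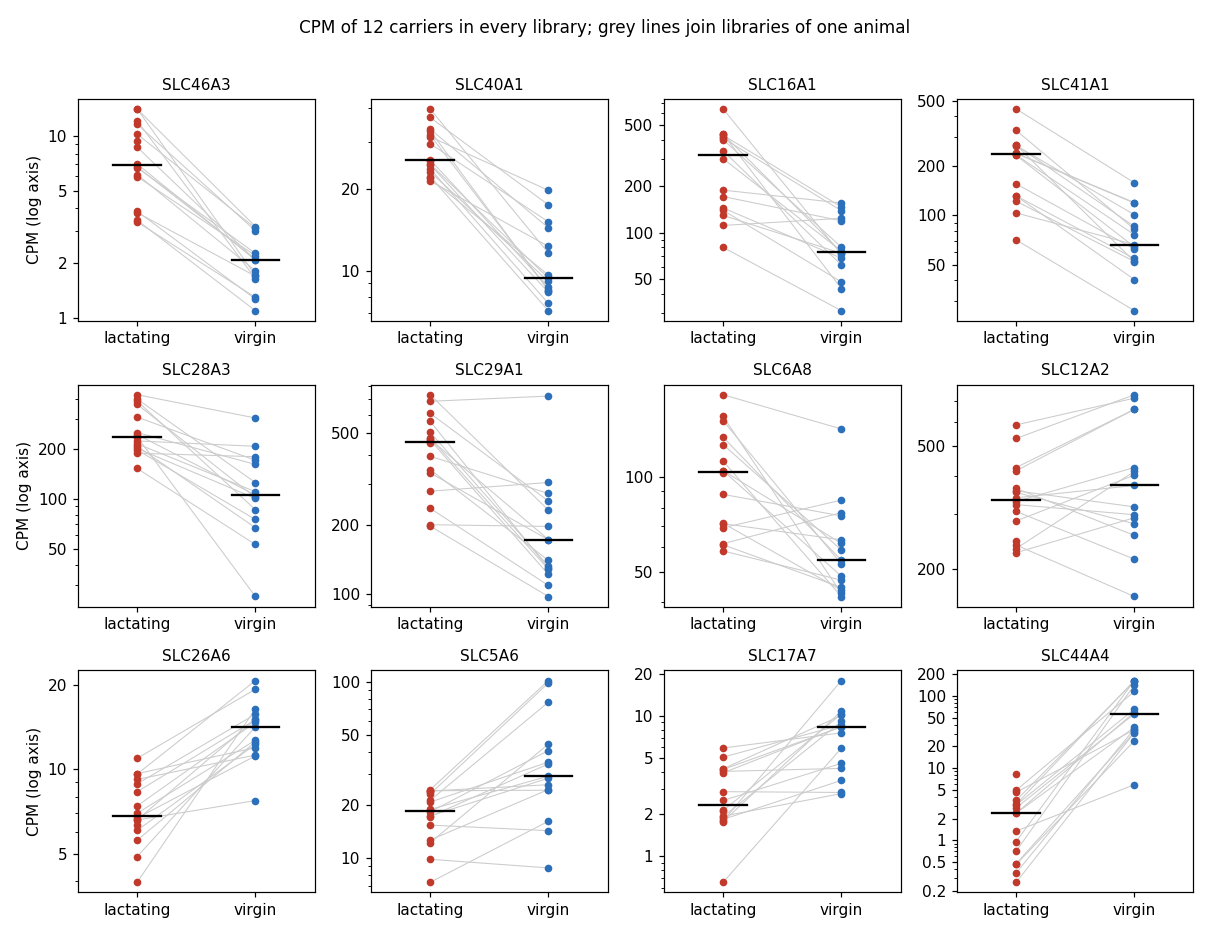
CPM on a log axis of 12 carriers in each library, 16 lactating on the left of each panel and 15 virgin on the right, with grey lines joining the libraries of 1 animal and black bars at the stage medians. SLC46A3 and SLC40A1 show no overlap between stages, SLC16A1, SLC41A1 and SLC28A3 lie higher in lactation with overlap, SLC12A2 overlaps throughout, and SLC44A4 lies lower in lactation with only the virgin library V610 within the lactating range. With no TMM factors the log2 fold changes of the panels kept their signs, and the call for SLC6A8 was lost while SLC12A2 was called lower. SLC46A3 and SLC40A1 then overlapped between the stages.

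The SLC6 family carries neurotransmitters, amino acids, creatine and taurine with sodium and chloride. Of 14 members 11 were tested, and 2 rose and 1 fell, or 0 and 2 without TMM factors. SLC6A8, the creatine carrier, was at 58.2, 104 and 183 CPM in lactating and 41.6, 54.3 and 142 CPM in virgin libraries. Each lactating library lay above the virgin median, but only 3 were above V479, the highest virgin library. The rise was 0.73 ± 0.18 on the log2 scale (adjusted p = 0.00112, edgeR), and the call was lost without TMM factors. SLC6A6, the taurine carrier, rose by 0.78 ± 0.20 and likewise lost its call without them. SLC6A11 (GAT-3), which takes up the transmitter GABA, had the largest fall of all members. It was at 0, 0 and 0.189 CPM in lactating and 0.0529, 0.971 and 9.68 CPM in virgin libraries, with 12 of 16 lactating libraries at 0 reads and 12 reads in all of them together, against 1052 reads over the virgin libraries. Lactating and virgin ranges met only at V502, the virgin library lowest in it. The fitted log2 fold change of -6.15 ± 0.69 (adjusted p = 1.07e-08, edgeR) depends on the prior count at such low levels, and it was lower in 15 of 15 animals.

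Sodium-coupled carriers of the SLC5 family take up sugars, iodide and some vitamins. Of 5 members 4 were tested, and 3 rose and 1 fell, or 2 and 1 without TMM factors. SLC5A5, the sodium-iodide symporter that concentrates iodide in the thyroid and in the lactating gland, was at 0.374, 1.83 and 4.97 CPM in lactating and 0.0547, 0.243 and 2.25 CPM in virgin libraries. V479 alone among the virgin libraries was above 1 CPM, and all lactating libraries lay above the virgin median. It rose by 2.47 ± 0.41 on the log2 scale (adjusted p = 6.35e-06, edgeR) and in 15 of 15 animals. SLC5A9, which in humans carries mannose and fructose, stood at 2.78, 5.48 and 12.6 CPM in lactating and 0.454, 1.22 and 5.54 CPM in virgin libraries and rose by 1.77 ± 0.29 (adjusted p = 6.37e-06, edgeR). Of its lactating libraries, 8 lay above V490, the highest virgin one, and it was higher in 13 of 15 animals. SLC5A1 (SGLT1), the sodium-glucose cotransporter, rose by 0.68 ± 0.22 (adjusted p = 0.0093, edgeR), a call not made without TMM factors. SLC5A6, which brings biotin and pantothenate into cells, was at 7.30, 18.6 and 24.4 CPM in lactating and 8.81, 29.2 and 102 CPM in virgin libraries. V531, V610 and V615 held the top values. V478, V502, V504 and V581 lay within the lactating range, and the remaining 11 virgin libraries lay above every lactating one. The fall was 1.15 ± 0.27 on the log2 scale (adjusted p = 0.000487, edgeR).

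Vitamin and choline carriers moved in both directions. Of 14 members 13 were tested, and 3 rose and 4 fell, or 2 and 6 without TMM factors and 4 and 3 when blocked by animal. SLC44A4, a choline carrier-like protein that in humans takes up thiamine pyrophosphate in the colon, was at 0.262, 2.37 and 8.19 CPM in lactating and 5.89, 56.2 and 163 CPM in virgin libraries. L495, the highest lactating library at 8.19 CPM, lay above V610, the lowest virgin one at 5.89 CPM, and the remaining 14 virgin libraries lay above every lactating one. The fall was 4.89 ± 0.49 on the log2 scale (adjusted p = 1.19e-09, edgeR) and occurred in 15 of 15 animals. SLC52A2, a riboflavin carrier, fell by 0.57 ± 0.15 (adjusted p = 0.00191, edgeR) in 15 of 15 animals, at 5.40, 7.20 and 11.5 CPM in lactating and 6.33, 10.2 and 22.1 CPM in virgin libraries. The stages overlapped, with 6 lactating libraries below the lowest virgin one. SLC23A1, an ascorbate carrier of low level here (0.0590, 0.239 and 0.623 CPM in lactating and 0.415, 0.908 and 2.00 CPM in virgin libraries), fell by 1.92 ± 0.29 (adjusted p = 1.89e-06, edgeR) in 15 of 15 animals. SLC19A1, the reduced folate carrier, was the weakest call of all members (log2 fold change -0.48 ± 0.21, adjusted p = 0.0484 in edgeR), lost on leaving out any of 22 of the 31 libraries in turn, with the animal as a block and under RLE size factors, among other settings.

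Among the carriers that rose, SLC46A3, a lysosomal carrier, was at 3.37, 6.90 and 14.1 CPM in lactating and 1.10, 2.08 and 3.18 CPM in virgin libraries. L478, at 3.37 CPM, was the lowest lactating library and still lay above V468, the highest virgin one, at 3.18 CPM. Without TMM factors V468 lay above L478. The rise was 1.96 ± 0.22 on the log2 scale (adjusted p = 8.08e-09, edgeR). SLC46A2, known from thymic stroma in mice, rose by 1.91 ± 0.26 (adjusted p = 4.03e-07, edgeR) in 15 of 15 animals, at 6.72, 11 and 28.8 CPM in lactating and 1.28, 2.22 and 10.2 CPM in virgin libraries. L538 stood highest by a wide margin. SLC44A2, a choline carrier-like protein, rose by 0.83 ± 0.21, a call not made without TMM factors, while SLC44A1 (log2 fold change -0.27 ± 0.15, adjusted p = 0.135 in edgeR) was not called.

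Nucleoside carriers of the SLC28 and SLC29 families move nucleosides with sodium or down their gradient. Of 6 members 5 were tested, and 3 rose and 1 fell, or 2 and 2 without TMM factors. SLC29A1 (ENT1), the widely expressed equilibrative carrier, averaged 33.7 in lactating and 16.5 CPM per kilobase in virgin libraries. In CPM it was at 197, 458 and 731 CPM in lactating and 97.8, 172 and 721 CPM in virgin libraries. Only L507 lay above V479, the next virgin library held 305 CPM, and L538 and L478 were the lowest lactating ones. The rise was 1.03 ± 0.24 on the log2 scale (adjusted p = 0.00063, edgeR), in 13 of 15 animals. SLC28A3 (CNT3), a sodium-coupled carrier of purine and pyrimidine nucleosides, was at 152, 235 and 423 CPM in lactating and 25.7, 105 and 306 CPM in virgin libraries. It was higher in 15 of 15 animals although the ranges overlapped, with V490 high among virgin and V610 low. The rise was 1.08 ± 0.23 (adjusted p = 0.000187, edgeR). SLC29A2 (ENT2) fell by 0.74 ± 0.21 (adjusted p = 0.0029, edgeR) at far lower levels, 0.567, 0.839 and 1.75 CPM in lactating and 0.727, 1.62 and 3.14 CPM in virgin libraries, and that call was lost without the 5 animals whose virgin library title carries an added letter. SLC28A1, a pyrimidine nucleoside carrier, rose by 1.34 ± 0.41 (adjusted p = 0.00682, edgeR), a call lost with the animal as a block, without TMM factors, without the lettered-title animals and with limma-voom.

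Carriers of peptides and amino acids (SLC15 and SLC43) had 6 members, all tested, of which 4 rose and 0 fell. Without TMM factors 2 were called higher and 2 lower, SLC15A1 and SLC15A4. SLC15A2 (PEPT2), a high-affinity proton-coupled uptake carrier for small peptides, was at 64.0, 117 and 422 CPM in lactating and 38.1, 76.5 and 182 CPM in virgin libraries. L478 and L538 held its highest values, and the rise was 0.70 ± 0.26 on the log2 scale (adjusted p = 0.021, edgeR). The call was lost without L478 (log2 fold change 0.52), without L478 and L538, the 2 lowest in milk protein share, together (0.41), without TMM factors and without the 5 animals whose virgin library title carries an added letter. Its counts were identical to those of ENSBTAG00000001442. SLC15A3, a lysosomal peptide and histidine carrier of immune cells, stood at 1.61, 3.49 and 4.68 CPM in lactating and 0.122, 0.675 and 2.17 CPM in virgin libraries and rose by 2.10 ± 0.27 (adjusted p = 1.5e-07, edgeR) in 15 of 15 animals. Only L538 fell within the virgin range, and macrophage marker sums moved the same way between the stages; their part in this rise was not tested. SLC43A2 (LAT4), a carrier of branched-chain and aromatic amino acids, rose by 1.23 ± 0.25 (adjusted p = 8.45e-05, edgeR), and SLC43A3, which in humans carries purine nucleobases, by 0.77 ± 0.20, a call not made without TMM factors.

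Metal carriers had 6 members, all tested, of which 3 rose and 2 fell, and the counts stayed 3 and 2 without TMM factors. SLC40A1, ferroportin, the only iron exporter known in mammals, was at 21.4, 25.6 and 39.6 CPM in lactating and 7.11, 9.39 and 19.8 CPM in virgin libraries. The lowest lactating library, L509, lay above V610, the highest virgin library, so that the stages did not overlap on the TMM scale. Without TMM factors V610 lay above L509. SLC40A1 rose by 1.33 ± 0.14 on the log2 scale (adjusted p = 4.49e-09, edgeR). SLC11A2 (DMT1), which takes up ferrous iron, was at 80.1, 129 and 242 CPM in lactating and 23.6, 42.0 and 81.6 CPM in virgin libraries, and only L531 and L595 did not exceed the highest virgin library. It rose by 1.60 ± 0.19 (adjusted p = 2.56e-08, edgeR) in 15 of 15 animals. The counted locus of SLC11A2 was 6.83 times its RefSeq span. Neighbours within the added length on either side include BIN2 and CSRNP2, which also rose (log2 fold changes 1.69 and 0.99), and TFCP2, which fell. Which of them the locus covers was not settled, so the reads behind this value may belong in part to other genes. SLC41A1, a magnesium carrier known for magnesium export, was at 70.7, 235 and 444 CPM in lactating and 26.1, 66.2 and 158 CPM in virgin libraries. L479 was the highest and L478 the lowest lactating library, and the 2 virgin libraries of the same animals were likewise the extremes. It rose by 1.49 ± 0.23 (adjusted p = 2.53e-06, edgeR) in 15 of 15 animals. Its paralogue SLC41A2 fell, at 6.55, 9.48 and 14.8 CPM in lactating and 7.37, 20.1 and 30.4 CPM in virgin libraries, by 0.97 ± 0.17 (adjusted p = 1.71e-05, edgeR), with all lactating libraries below the virgin median. SLC41A3, a mitochondrial magnesium carrier, also fell, by 0.68 ± 0.18.

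Iron handling genes that are not carriers of these families had 6 of 8 tested members higher in lactation and 0 lower. TFRC, also listed, is not among the 8, as its counts equalled those of a row kept under another name. The shares over all loci were 23.8% higher and 31.3% lower. CP (ceruloplasmin), which oxidises iron so that it can be carried away from ferroportin, was at 18.9, 52.8 and 217 CPM in lactating and 0.567, 3.90 and 12.6 CPM in virgin libraries, without overlap, and rose by 3.99 ± 0.44 (adjusted p = 7.39e-09, edgeR). STEAP4, a metalloreductase, rose by 2.47 ± 0.36 (adjusted p = 7.93e-07, edgeR). Without TMM factors 3 of the 8 were still called higher.

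Calcium exchange had 2 members. SLC8A1 (NCX1), the plasma membrane sodium-calcium exchanger best known from the heart, was at 3.46, 10.1 and 21.6 CPM in lactating and 0.497, 2.58 and 8.36 CPM in virgin libraries and rose by 1.87 ± 0.30 (adjusted p = 3.79e-06, edgeR) in 15 of 15 animals. The ranges overlapped, with V502 the highest virgin library and also the one highest in the fibroblast and endothelial sums; the part of those cells was not tested. SLC24A3, a potassium-dependent sodium-calcium exchanger, was not called (20.8, 36.5 and 73.0 CPM in lactating and 9.05, 24.8 and 67.4 CPM in virgin libraries, log2 fold change 0.36 ± 0.27, adjusted p = 0.273 in edgeR).

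Acid-base and anion exchangers of the SLC4, SLC9 and SLC26 families set the pH and bicarbonate of cells and secretions. Of 20 members 16 were tested, and 5 rose and 7 fell, or 1 and 8 without TMM factors and 6 and 5 when blocked by animal. SLC4A11, related to the bicarbonate carriers and known in humans from the corneal endothelium, stood at 0.700, 2.26 and 7.14 CPM in lactating and 0, 0.451 and 3.64 CPM in virgin libraries. V479 and V502 were the highest virgin libraries, and L615 the lowest lactating one. The rise was 2.04 ± 0.46 on the log2 scale (adjusted p = 0.000358, edgeR), in 14 of 15 animals. SLC4A2 (AE2), a chloride-bicarbonate exchanger, rose by 0.75 ± 0.17 and SLC9A9, an endosomal exchanger, by 0.83 ± 0.25, and both calls were lost without TMM factors, that of SLC9A9 also without the lettered-title animals.

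Falls were spread over these families. SLC26A6, an exchanger of chloride for bicarbonate and oxalate, was at 3.97, 6.85 and 10.9 CPM in lactating and 7.75, 14.1 and 20.7 CPM in virgin libraries. V507 was the only virgin library within the lactating range, and the fall of 0.93 ± 0.14 on the log2 scale (adjusted p = 9.97e-07, edgeR) occurred in 15 of 15 animals. SLC26A2, the sulphate carrier whose loss in humans disturbs cartilage, was at 170.4, 250.4 and 561 CPM in lactating and 155, 484 and 871 CPM in virgin libraries and fell by 0.74 ± 0.22 (adjusted p = 0.00436, edgeR). Its counts equalled those of HMGXB3, and its counted locus was 4.38 times the RefSeq span. CSF1R lies near enough that the locus may also cover it, which was not settled. The SLC26A2 call was lost without the 5 animals of the lettered titles. SLC4A3 (AE3) fell by 1.01 ± 0.22 (adjusted p = 0.000275, edgeR), at 1.3, 2.24 and 5.15 CPM in lactating and 2.29, 3.99 and 10.2 CPM in virgin libraries. SLC9A5, known mainly from brain, fell by 1.03 ± 0.32 (adjusted p = 0.00755, edgeR), at 0.369, 0.648 and 1.00 CPM in lactating and 0.434, 0.781 and 7.07 CPM in virgin libraries. V478 stood far above all other virgin libraries; without V478 the log2 fold change was -0.57, still called, and the call was lost with the animal as a block, with limma-voom and without the lettered-title animals. SLC26A9, a chloride carrier and channel, fell by 1.16 ± 0.43 (adjusted p = 0.0212, edgeR), at 0.263, 1.43 and 3.30 CPM in lactating and 0.162, 1.48 and 13.4 CPM in virgin libraries. V595 and V468 held its highest values, and the call was lost without either of them, with the animal as a block and with limma-voom.

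Cation-chloride cotransporters of the SLC12 family set cell chloride and volume. All 7 members were tested, and 1 rose and 1 fell. Without TMM factors 0 were called higher and 4 lower, and the block by animal gave 2 and 1. SLC12A2 (NKCC1), which loads chloride from the blood side in secretory epithelia, was high at both stages, at 225, 335 and 586 CPM in lactating and 162, 372 and 734 CPM in virgin libraries, and overlapped throughout. Its log2 fold change was -0.25 ± 0.19 (adjusted p = 0.264, edgeR), not called, but it was called lower without TMM factors. SLC12A3 (NCC), the thiazide-sensitive sodium-chloride cotransporter of the kidney, was at 0, 0.273 and 0.647 CPM in lactating and 0.590, 2.54 and 4.72 CPM in virgin libraries, with 119 reads over all lactating and 1075 over all virgin libraries. V509 was the only virgin library within the lactating range. The fall was 3.18 ± 0.33 on the log2 scale (adjusted p = 2.11e-09, edgeR), in 15 of 15 animals. SLC12A8, a distant family member, was at 29.0, 76 and 130.0 CPM in lactating and 10.6, 36.9 and 81.4 CPM in virgin libraries and rose by 1.10 ± 0.24 (adjusted p = 0.000299, edgeR). Its counts were identical to those of HEG1, a gene known from endothelium, so the reads of both cannot be told apart, and the call was lost without TMM factors.

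Organic ion and carnitine carriers of the SLC22 family had 10 members, 8 tested, of which 1 rose and 3 fell. The number lower was 6 without TMM factors and 5 when blocked by animal, and 1 was higher in both. SLC22A16, a carnitine carrier known from human testis, was at 8.39, 17.8 and 29.3 CPM in lactating and 1.94, 3.37 and 11.8 CPM in virgin libraries and rose by 1.69 ± 0.27 (adjusted p = 3.16e-06, edgeR) in 14 of 15 animals. Its counted locus was 2.98 times its RefSeq span. That locus may cover the nearby DDO and METTL24, which rose too (log2 fold changes 1.38 and 1.15). SLC22A5 (OCTN2), the main carnitine uptake carrier, was not called at 34.1, 46.3 and 69.6 CPM in lactating and 23.2, 37.3 and 73.7 CPM in virgin libraries (log2 fold change 0.23 ± 0.14, adjusted p = 0.179 in edgeR). SLC22A23, an orphan carrier, fell by 0.67 ± 0.16 (adjusted p = 0.000716, edgeR), at 23.1, 36.9 and 58.7 CPM in lactating and 30.3, 50.3 and 114 CPM in virgin libraries, in 12 of 15 animals. SLC22A4 and SLC22A31 also fell, by 0.58 ± 0.21 and 1.01 ± 0.28. The SLC22A4 call was lost on leaving out V468, V502 or V581 and with limma-voom, and its counts equalled those of bta-mir-2457.

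Carriers of sulphate, citrate, phosphate and vesicular anions (SLC13 and SLC17) had 6 members, 5 tested, of which 1 rose and 4 fell, or 0 and 4 without TMM factors. SLC13A2, a sodium-coupled carrier of citrate and other dicarboxylates, was at 0.487, 2.62 and 5.78 CPM in lactating and 1.33, 5.50 and 24.4 CPM in virgin libraries, and V478, V479 and V490 held the high end. The fall was 1.42 ± 0.40 on the log2 scale (adjusted p = 0.00315, edgeR), in 11 of 15 animals. SLC17A7 (VGLUT1), which loads glutamate into synaptic vesicles, was at 0.655, 2.32 and 5.92 CPM in lactating and 2.80, 8.36 and 17.9 CPM in virgin libraries and fell by 1.38 ± 0.26 (adjusted p = 4.26e-05, edgeR), with each lactating library below the virgin median. SLC17A9 (VNUT), the vesicular nucleotide carrier, fell by 0.72 ± 0.22 (adjusted p = 0.00582, edgeR) and SLC13A3 by 0.84 ± 0.25. SLC17A5 (sialin), which exports sialic acid from lysosomes, was at 21.1, 31.1 and 42.1 CPM in lactating and 13.2, 17.9 and 28.3 CPM in virgin libraries and rose by 0.67 ± 0.12 (adjusted p = 2.95e-05, edgeR), a call not made without TMM factors.

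**Figure D4:**
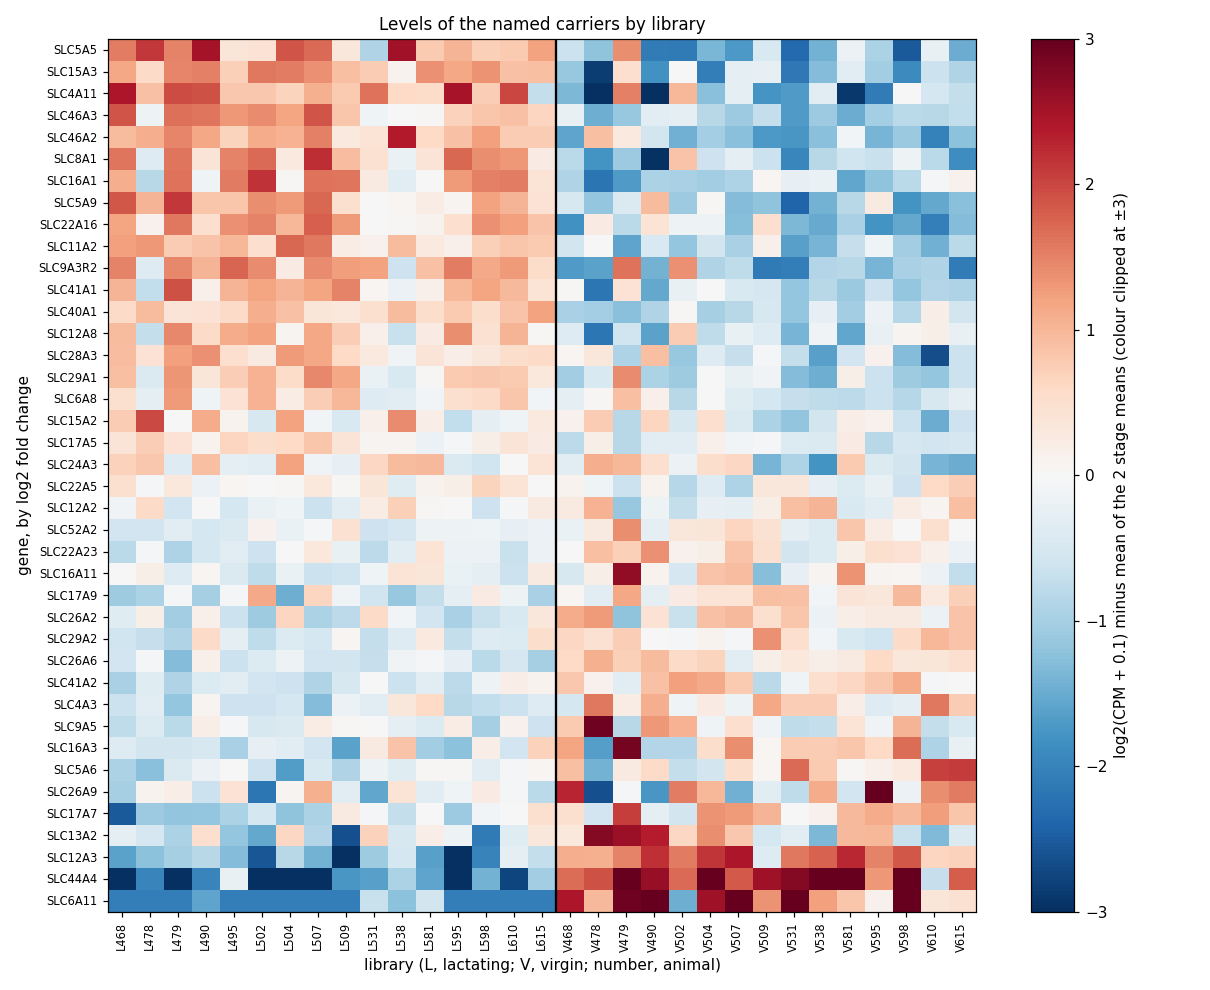
Heat map of 40 of the 41 carriers chosen for naming (rows, ordered by log2 fold change) in 16 lactating (left) and 15 virgin (right) libraries, coloured by log2(CPM + 0.1) minus the mean of the 2 stage means. Rows at the top are redder in lactation and those at the bottom bluer. V479 stands out as a red column among the virgin libraries for SLC4A11, SLC9A3R2, SLC29A1, SLC16A11 and SLC16A3. The direction of SLC22A5 turns without TMM factors.

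The scaffold genes differed. SLC9A3R2 (NHERF2), which ties carriers and receptors to the cytoskeleton, was at 4.08, 15.1 and 21.4 CPM in lactating and 1.39, 3.20 and 19.7 CPM in virgin libraries and rose by 1.58 ± 0.35 (adjusted p = 0.000354, edgeR). V479 and V502 held its 2 highest virgin values, and without V479 and V502 the log2 fold change was 2.41. SLC9A3R1 (NHERF1) was not called (log2 fold change 0.32 ± 0.19, adjusted p = 0.147 in edgeR), but was called higher with the animal as a block, and its sign turned without TMM factors.

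Genes that work with the carriers were read from lists in the same fit, where 23.8% of all loci were higher and 31.3% lower. Of 15 partners and kinases 5 were higher and 3 lower, or 4 and 6 without TMM factors. EMB (embigin), which like basigin helps bring monocarboxylate carriers to the cell surface, rose by 3.06 ± 0.34 (adjusted p = 1.08e-08, edgeR). It was at 76.7, 168 and 572 CPM in lactating and 9.77, 35.0 and 49.7 CPM in virgin libraries, without overlap. Without TMM factors V504, its highest virgin library, lay above L502, its lowest lactating one. BSG (basigin) was not called (log2 fold change 0.28 ± 0.21, adjusted p = 0.259 in edgeR). Of the 8 sodium pump genes 2 were higher and 0 lower, and FXYD5, a pump regulator, rose by 0.75 ± 0.29. Without TMM factors 0 of the 8 were called higher and 1 lower.

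Of 13 epithelial channel genes 5 were higher and 4 lower, or 3 and 5 without TMM factors. KCNE3, a potassium channel subunit, fell by 3.47 ± 0.38 (adjusted p = 6.64e-09, edgeR) with all lactating libraries below all virgin ones. SCNN1A, a subunit of the epithelial sodium channel, rose by 2.68 ± 0.30 (adjusted p = 1.24e-08, edgeR). Of 7 genes of the carbonic anhydrase family 2 were higher and 4 lower (1 and 5 without TMM factors). Most of this family are enzymes that make the bicarbonate and protons carried by the acid-base exchangers. CA5B, a mitochondrial form, was down by 0.54 ± 0.09 and CA4, a membrane form, by 2.78 ± 0.49. Of 14 enzymes that use the carried solutes 5 were higher and 2 lower, or 3 and 6 without TMM factors. CPT1A, which commits fatty acids to carnitine-dependent oxidation, was at 70.4, 104 and 124 CPM in lactating and 11.3, 25.6 and 62.0 CPM in virgin libraries, without overlap, and rose by 1.77 ± 0.17 (adjusted p = 4.41e-10, edgeR). Without TMM factors V509, its highest virgin library, lay above L615, its lowest lactating one. CHKA, which phosphorylates choline, rose by 1.44 ± 0.20 (adjusted p = 4.36e-07, edgeR).

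**Figure D5:**
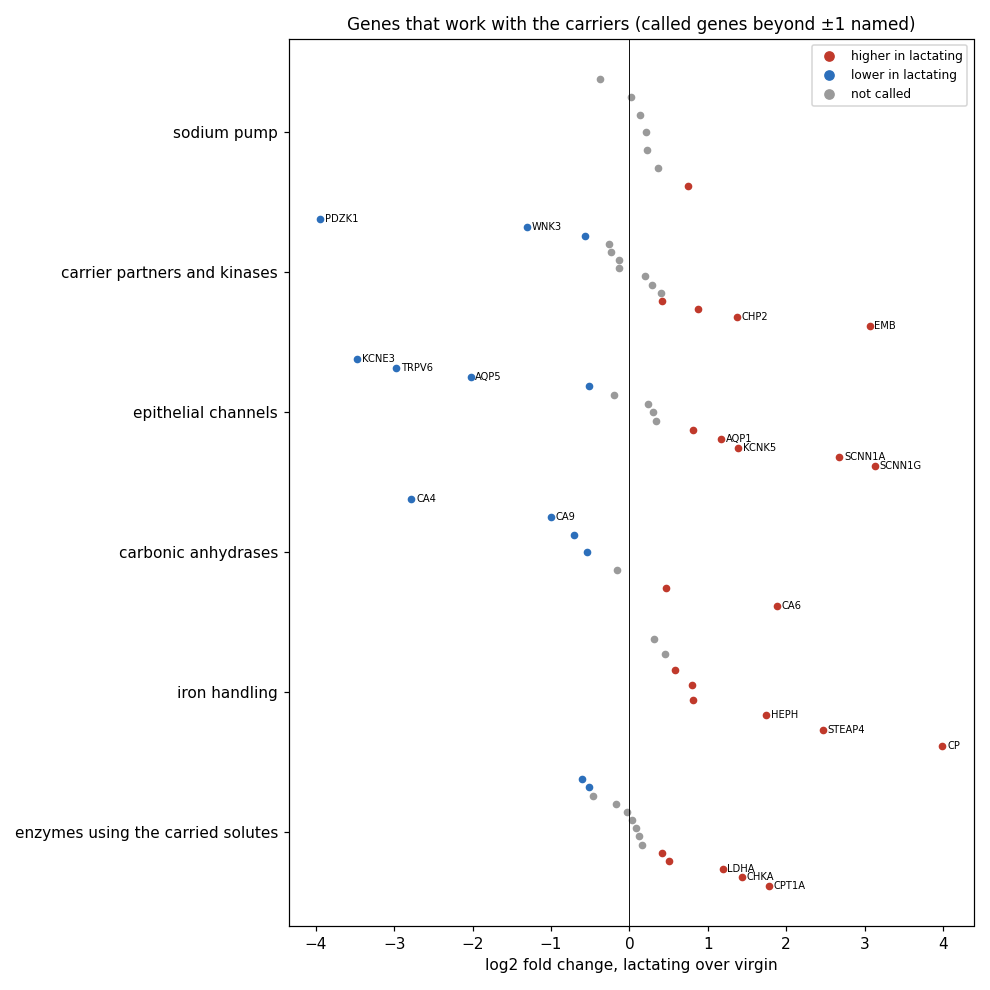
Log2 fold change (lactating over virgin, horizontal axis) of tested genes that work with the carriers, by list (vertical axis), with red for higher in lactation, blue for lower and grey for not called. Called genes beyond a log2 fold change of 1 in either direction are named. The iron handling list has 6 red points and 0 blue, and the carbonic anhydrases have 2 red and 4 blue. Without TMM factors, of the 8 tested sodium pump genes 0 were called higher and 1 lower.

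In the authors' deposited table of fold changes, 15 members were higher and 9 lower in lactating samples where the adjusted p was under 0.05. Of these, 22 were called here in the same direction, and SLC4A5 and SLC29A4 were not tested here for low counts.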

How the data were processed

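The authors deposited read counts per gene, whole numbers with no normalization, and a second table of RPKM values with log2 fold changes (virgin minus lactating) and adjusted p-values, whose adjustment is not given in the sources used here. The submitters' processing notes name build UMD3.1, edgeR, featureCounts 1.5.2, StringTie 1.3.2, SAMtools and HISAT2 2.0, without their roles. Per the labels' protocols, the libraries were strand-specific and spike-in RNA was added.

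Of 14084 deposited rows, those with identical counts were taken once, which left 13407 loci. Locus lengths came from the ratio of count to RPKM. Loci passing filterByExpr (minimum count 10, minimum total 15) numbered 12472, and 935 were left out. They were tested with edgeR 4.0.16 in R 4.3.3 (TMM, glmQLFit robust, glmQLFTest, glmTreat against a log2 fold change of 1) with stage as the only term. Benjamini-Hochberg adjusted p-values under 0.05 over all tested loci were called. The SE was obtained as the absolute log2 fold change over the root of the F statistic. CPM use the TMM-scaled total of distinct loci.

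The members, the gene lists and the tests were chosen with earlier results of these data known. The rule for naming took, among called members, the 12 with the highest and the 12 with the lowest log2 fold change at an average log2 CPM of 0 or more, the smallest p, highest level per kilobase and, where calls went both ways, smallest p per direction in each solute group, and the 8 highest levels per kilobase, 41 members in all. Of each related list the 2 genes with the smallest p were named. Other members and genes were named after their values were seen, to complete a group's calls. Some genes that these rules picked, or that the plots would show, are not reported here, though counts over a group include them.

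Replicate numbers name animals sampled at both stages, per the series design, which pairs 15 of them. With stage means removed, the correlation between both libraries of an animal ran from 0.0244 to 0.393 and averaged 0.212, while between different animals it averaged -0.0156. The own-animal value was over 0.1 in 11 of the 15 pairs, and in 7 pairs the best match was the animal's own library. Between any 2 libraries of a stage, chi-square per degree of freedom was at least 45.5 in lactating and 35.0 in virgin libraries, so no library was counted as a repeat. The RefSeq table (ARS-UCD2.0) gave gene spans and neighbours only, and no coordinates are given because its build differs. Neighbours were genes within the added locus length on either side of the RefSeq gene, so a locus need not cover them all. Simulated counts with known changes were used to check the edgeR fits. Alternatives were the animal as a block, other scalings and filters, every deposited row, DESeq2 1.42.0, limma-voom (limma 3.58.1) and fits without named libraries. The erythroid marker list was not analysed here. Listed genes whose counts equalled those of a row kept under another name were left out of the list counts and sums. They were TFRC, ATP1B2, KCNN4, KRT5, KRT14, PECAM1 and CXCR2.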

Additional observations from a re-analysis of the deposited data

How the results depend on the processing

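With the animal as a block (pairing of 15 animals, 30 libraries) 36 carriers were higher and 24 lower, against 31 and 26 without it, while all loci gave 3472 higher and 3427 lower, against 2970 and 3900; 5 calls were lost (SLC26A9, SLC9A5, SLC16A11, SLC28A1 and SLC19A1) and 8 gained. Without TMM factors 18 were higher and 42 lower, 2 were higher by more than 2-fold, all loci gave 1283 higher and 7217 lower, and SLC22A5, called in neither fit, reversed to -0.31. Without the 5 animals whose virgin library title carries an added letter, 4 carriers were higher by more than 2-fold, and with at least 1 CPM in 15 libraries, 1 was lower by more than 2-fold; both fits hold fewer samples or loci. Counts under RLE size factors, no filter, every deposited row, DESeq2, limma-voom and without L478 and L538 or V479 and V502 stayed within 1.5 times. Leaving out 1 library at a time gave 31 to 36 higher and 24 to 29 lower, with 9 to 14 and 4 to 5 over 2-fold, and 52 of the 57 calls held in every such fit. Where no cause is given, the cause was not tested. Depth limits carriers near 1 CPM, such as SLC6A11, SLC9A5 and SLC12A3, whose fold changes rest on few reads in lactating libraries.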
